A study of Mus musculus with 8 samples.

Results

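Hist1h2bg, Hist1h2bj, Hist1h2bk and Hist1h4m are histone genes of the replication type that lie in the Hist1 cluster on mouse chromosome 13. They were taken by name from 119 genes with RNA-seq values from whole small intestinal tissue. The authors had kept these 119 for a difference between the groups described below, at an FDR under 0.05. The 4 genes are described here out of these 119. Of 68 replication-type histone genes searched for by name, these 4 were listed and the other members of the family were not analysed here. The tissue came from male C57BL/6 mice, and 4 libraries were wild type (WT) and 4 carried a Vil-Cre mediated knockout of Smarcad1 (KO). Smarcad1 encodes an ATP-dependent chromatin remodeler of the Smarcad1/Etl1/Fun30 family. In the KO mice both alleles carry loxP sites around exons 12 to 14, and Cre is driven by the Villin promoter, so the deletion is limited to the intestinal epithelium while muscle, immune and stromal cells in the same tissue keep the gene. Ages are not given in the labels, and no treatment is named for either group. Each library carries a sample number from 1 to 4, and nothing says which samples share a litter or a day.

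Core histones H2A, H2B, H3 and H4 form the protein spool around which DNA is wrapped as a nucleosome. Replication-type histone genes lie in clusters, have no introns and are expressed mainly in S phase, when newly copied DNA has to be packed. Their mRNAs usually end in a conserved stem-loop in place of a poly(A) tail. In the intestine, dividing cells are found in the crypts, where stem and transit amplifying cells renew the epithelium. Hist1h2bg, Hist1h2bj and Hist1h2bk encode histone H2B, and Hist1h4m encodes histone H4.

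The 4 genes are all single-exon genes on the plus strand of GRCm38. Hist1h4m (RefSeq H4c17) was listed at chr13:21811746-21812150, a span of 405 bases. Hist1h2bk (RefSeq H2bc12) was listed at chr13:22035821-22036299, 479 bases, and Hist1h2bj (RefSeq H2bc11) at chr13:22043214-22043676, 463 bases. These H2B genes are neighbours, 6914 bases apart. Hist1h2bg (RefSeq H2bc8) was listed at chr13:23571396-23572013, 618 bases, 1.53 Mb further on. All 4 fell within 1.76 Mb. Of the 119 genes, 4 others were on chromosome 13, Tubb2a, Gm10760, Itga2 and Nnt, and the closest of these to the histone genes, Tubb2a, lay 10.5 Mb away.

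The 3′ ends are shown first, because the stem-loop is what sets these mRNAs apart from other mRNAs. In the GENCODE M21 transcripts, a search for the histone stem-loop found 1 match of 16 bases in each gene downstream of the stop codon. The stem-loop is in capitals, with flanking bases in lower case, read 5′ to 3′ on the plus strand.
Hist1h2bg: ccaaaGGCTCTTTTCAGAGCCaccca
Hist1h2bj: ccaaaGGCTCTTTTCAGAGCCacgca
Hist1h2bk: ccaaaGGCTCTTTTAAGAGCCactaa
Hist1h4m: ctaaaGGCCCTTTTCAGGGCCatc
The printed stretches are at chr13:23571838-23571863, chr13:22043633-22043658, chr13:22036295-22036320 and chr13:21812124-21812147 in this order. Hist1h2bg and Hist1h2bj share the same 16 bases. The stem-loop began 28 to 34 bases after the stop codon in all 4 genes. The annotated Hist1h2bg transcript runs on for 155 bases past its stem-loop, that of Hist1h2bj for 23, that of Hist1h2bk for 30 and that of Hist1h4m for 3. The listed span of Hist1h2bk ended before the stem-loop, so reads there were not part of its value, while the spans of the other 3 genes covered it.

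The 200 bases before the RefSeq transcription start (GRCm38.p6) are shown because all 4 genes had WT 1 and WT 4 as their highest libraries, as described further on. Whether promoter sequence bears on that pattern was not tested, and no element marked here was present in all 4 genes. Capitals mark the octamer ATTTGCAT, an element known from H2B promoters, the CCAAT box (CCAAT or its reverse complement ATTGG) and the TATA box (TATAAA). The octamer (also as ATGCAAAT) and the CCAAT box were searched for on both strands, and the TATA box, which has a direction, on the strand of the gene only. No matches overlapped.
Hist1h2bg, chr13:23571200-23571399: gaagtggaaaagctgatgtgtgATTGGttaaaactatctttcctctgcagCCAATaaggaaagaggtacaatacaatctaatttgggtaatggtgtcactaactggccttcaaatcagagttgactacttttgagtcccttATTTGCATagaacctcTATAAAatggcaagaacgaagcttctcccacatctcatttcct
Hist1h2bj, chr13:22042998-22043197: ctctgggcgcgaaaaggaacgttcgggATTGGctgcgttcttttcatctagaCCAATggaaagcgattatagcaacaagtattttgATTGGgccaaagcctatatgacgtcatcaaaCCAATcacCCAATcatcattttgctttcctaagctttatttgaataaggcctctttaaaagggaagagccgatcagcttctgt
Hist1h2bk, chr13:22035621-22035820: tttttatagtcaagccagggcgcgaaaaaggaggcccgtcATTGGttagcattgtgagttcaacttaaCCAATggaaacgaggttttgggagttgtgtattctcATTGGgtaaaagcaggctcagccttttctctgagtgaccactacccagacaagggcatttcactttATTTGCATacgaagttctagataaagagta
Hist1h4m, chr13:21811546-21811745: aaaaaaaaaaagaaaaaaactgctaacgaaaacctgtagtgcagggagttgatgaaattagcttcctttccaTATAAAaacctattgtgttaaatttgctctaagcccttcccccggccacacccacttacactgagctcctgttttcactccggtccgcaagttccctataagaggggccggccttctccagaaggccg
Counted from the RefSeq start, the octamer stood at base -59 in Hist1h2bg and at -30 in Hist1h2bk. GENCODE M21 places the starts of the H2B genes elsewhere, for Hist1h2bk at 22035870 where RefSeq has 22035821. Positions and matches in the H2B genes thus depend on the start used. Hist1h2bj had the stretch ATTTGAAT at -46, which carries the substitution C6A, counted from 1 at the 5′ end of the octamer. Hist1h4m had no octamer. The CCAAT box was found at 2 places in Hist1h2bg, 5 in Hist1h2bj, 3 in Hist1h2bk and none in Hist1h4m. The letters of the TATA box were found at 1 place in Hist1h2bg, at -43, and at 1 in Hist1h4m, further from the start at -128. Over all 32851 RefSeq promoters of this length, 1.38% held the octamer, 29.3% the CCAAT box and 6.27% the TATA box. A match gives only the letters, and whether a factor bound there was not measured.

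The H2B genes are close copies of each other. Their coding sequences of 381 bases were 97.6% identical between Hist1h2bg and either of the others, and 97.9% identical between Hist1h2bj and Hist1h2bk. Only uniquely mapped reads had been kept, and the values therefore rest on stretches that differ between copies. Of all windows of 50 bases in the annotated transcript, 49.7% for Hist1h2bg, 59.4% for Hist1h2bj, 74.2% for Hist1h2bk and 89.8% for Hist1h4m were also present, letter for letter, in the transcript of at least 1 other gene. For windows of 100 bases the shares were 44.9%, 40.1%, 70.8% and 88.1%. The other genes were 14 H2B genes of the same cluster for each H2B gene at 50 bases, and 11 for Hist1h4m, mainly H4 genes. Levels between the 4 genes are thus uncertain, whereas a comparison of 1 gene between libraries is made over the same bases.

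The depth of each library, recovered from the whole-read steps in the RPKM values (reads scaled to each library's mapped reads and to the kilobases of listed span), was 56981718 to 78026422 mapped reads. The targeted gene, Smarcad1, was at 0.312 to 0.373 RPKM in the WT libraries and 0.209 to 0.276 in the KO libraries. The groups did not overlap, and the KO mean was 0.705 of the WT mean. Its change was -0.37 on the log2(RPKM + 0.1) scale (SE 0.11, limma adjusted p = 0.0106), in tissue where other cells keep the gene. Reads were counted over the merged transcript and not over the deleted exons 12 to 14 alone. The ratio is thus no measure of how many cells keep the gene. All 119 genes had been selected by the authors for a difference between these same 8 libraries, so no p below is independent evidence of one. In whole tissue, fewer cells of a type and less RNA per cell cannot be told apart.

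All 4 histone genes were lower in KO than in WT small intestine, by 2.20-fold to 4.88-fold in mean RPKM. The WT libraries were uneven for all of them, with WT 1 and WT 4 above WT 2 and WT 3, whereas the KO libraries were low and, apart from those of Hist1h2bk, close together. Values are RPKM in the order of sample number, and n was 4 in each group.

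Hist1h4m, the H4 gene, was at 3.03, 1.61, 2.38 and 8.07 RPKM in WT 1 to WT 4 and at 1.57, 1.09, 1.42 and 1.27 in KO 1 to KO 4. WT 4 stood far above the rest, and the groups did not overlap, but the lowest WT library exceeded the highest KO library by a factor of only 1.03. The means were 3.78 ± 2.92 in WT and 1.34 ± 0.204 in KO (SD, n = 4). The KO to WT ratio of the means was 0.354, and the change on the log2(RPKM + 0.1) scale was -1.18 (95% interval -2.07 to -0.29, limma adjusted p = 0.0207).

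Hist1h2bg, an H2B gene, was at 2.67, 1.95, 1.84 and 4.44 RPKM in WT 1 to WT 4 and at 1.36, 1.13, 1.38 and 1.08 in KO 1 to KO 4. The groups did not overlap, and the lowest WT library was 1.33 times the highest KO library, the widest gap among the 4 genes. The means were 2.72 ± 1.20 and 1.24 ± 0.155 (SD, n = 4). The ratio was 0.454, and the change was -0.999 on the log2(RPKM + 0.1) scale (95% interval -1.55 to -0.45, limma adjusted p = 0.00573).

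Hist1h2bj, the second H2B gene, was at 2.05, 0.520, 0.751 and 1.78 RPKM in WT 1 to WT 4 and at 0.439, 0.332, 0.355 and 0.415 in KO 1 to KO 4. Here WT 1 and not WT 4 was the highest library, and WT 2, the lowest, was 1.19 times the highest KO library. The means were 1.27 ± 0.752 and 0.385 ± 0.0503 (SD, n = 4). The ratio was 0.302, and the change was -1.32 on the log2(RPKM + 0.1) scale (95% interval -2.13 to -0.52, limma adjusted p = 0.00883).

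Hist1h2bk, the neighbour of Hist1h2bj, was at 1.80, 0.718, 0.528 and 3.47 RPKM in WT 1 to WT 4 and at 0.565, 0.214, 0.343 and 0.214 in KO 1 to KO 4. It had the lowest KO to WT ratio of the 4 genes, 0.205, and was also the gene whose groups overlapped, since KO 1 was above WT 3. The means were 1.63 ± 1.35 and 0.334 ± 0.166 (SD, n = 4). The change was -1.73 on the log2(RPKM + 0.1) scale (95% interval -2.86 to -0.60, limma adjusted p = 0.0111). In an exact two-sided permutation test of the same values, which can give no p below 0.0286 for 4 against 4 libraries, the adjusted p was 0.0694 for Hist1h2bk and 0.04 for the other 3 genes.

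**Figure D1:**
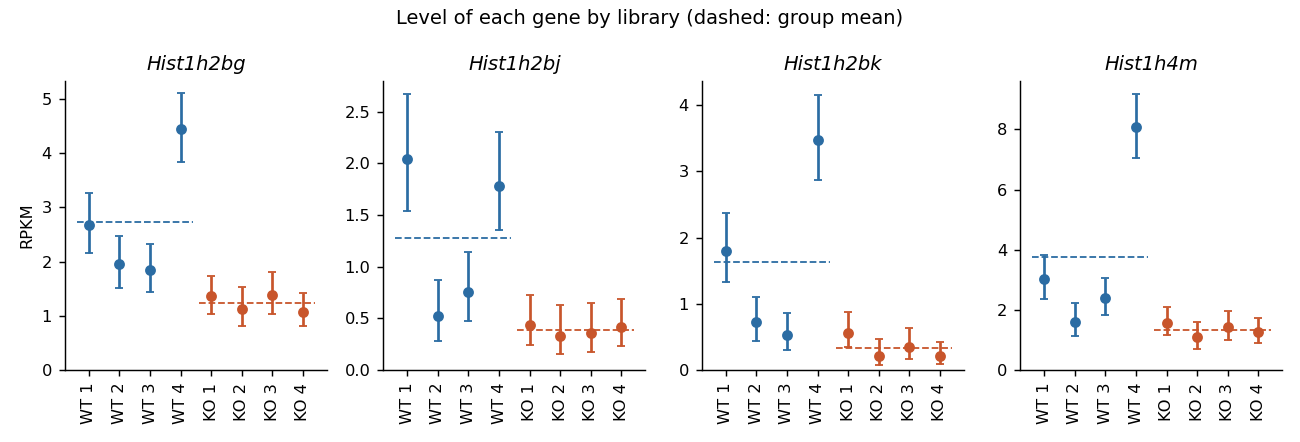
RPKM of Hist1h2bg, Hist1h2bj, Hist1h2bk and Hist1h4m in each of the 8 libraries, with WT in blue and KO in orange. Bars are exact Poisson 95% intervals of the read counts, dashed lines are group means, and each panel has its own vertical scale from 0. WT 1 and WT 4 are the highest libraries in every panel, and KO 1 to KO 4 lie at 0.214 to 1.57 RPKM.

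By limma with Benjamini-Hochberg adjustment over all 119 genes, all 4 histone genes were called lower in KO at an adjusted p under 0.05, beside 30.3% of all 119 genes (36 genes). All KO libraries were below all WT libraries for 3 of the 4, beside 22.7% of all genes (27 genes). The median change of the 4 genes was -1.25 on the log2(RPKM + 0.1) scale, against -0.07 over all 119 genes and -0.39 over the 60 with a lower mean in KO. Since the authors kept only genes with a difference, these shares are no background of unchanged genes.

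The values rest on few reads. Between 6 and 230 reads were behind a single value, with the fewest for Hist1h2bk in KO 2 and the most for Hist1h4m in WT 4. For Hist1h4m, the lowest WT library had 38 reads, which gives an interval of 1.14 to 2.22 RPKM (exact Poisson 95%, counting error only), and the highest KO library had 47 reads and an interval of 1.15 to 2.09. The gap between the groups was thus well within counting error for this gene. For WT 4 the interval was 7.06 to 9.19 RPKM, above those of all other libraries. Hist1h2bk in KO 2 and KO 4 had 6 and 8 reads, and its level there is known only to within 0.0784 to 0.465 and 0.0924 to 0.422 RPKM.

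The reads of the 4 genes were then added up in each library. They came to 4.69, 2.44, 2.70 and 8.50 RPM (reads scaled to each library's mapped reads, as in RPKM, but not to length) in WT 1 to WT 4 and to 1.95, 1.40, 1.76 and 1.47 in KO 1 to KO 4. WT 4 alone held 50.8% of all WT reads of these genes, and WT 1 and WT 4 together 73.4%. WT 2 and WT 3 were nearest to the KO libraries, and the interval of WT 2, 2.06 to 2.88, overlapped that of KO 1, 1.64 to 2.30. The WT mean was 4.58 ± 2.80 and the KO mean 1.64 ± 0.255 (SD, n = 4), a KO to WT ratio of 0.359.

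**Figure D2:**
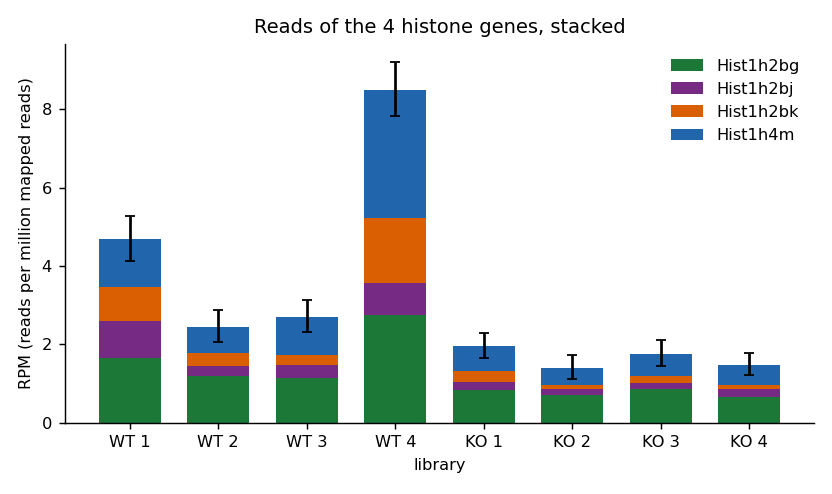
Reads in RPM for the 4 histone genes in each library, stacked by gene, with exact Poisson 95% intervals of the sum. WT 4 reaches 8.50 and WT 1 4.69, while WT 2 and WT 3 (2.44 and 2.70) lie closer to the KO libraries (1.40 to 1.95).

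The spread between libraries differed by group. Among the KO libraries, the coefficient of variation was 12.5% for Hist1h2bg, 13.1% for Hist1h2bj and 15.3% for Hist1h4m, no more than the 14.1%, 29.3% and 16.8% that counting error alone gives at these read numbers. For Hist1h2bk it was 49.6%, against 33.2% from counting. Among the WT libraries the coefficients of variation were 44.1%, 59.0%, 82.9% and 77.4% for Hist1h2bg, Hist1h2bj, Hist1h2bk and Hist1h4m, against 10.5%, 19.5%, 18.8% and 12.4% from counting. On the log2(RPKM + 0.1) scale, the SD among WT libraries was 1.15 for Hist1h2bk, 0.96 for Hist1h4m, 0.87 for Hist1h2bj and 0.56 for Hist1h2bg, which ranked 1, 2, 4 and 6 of the 119 genes from the widest. The median of all genes was 0.21. In KO the corresponding SDs were 0.52, 0.21, 0.15 and 0.17, with a median of 0.17 over all genes.

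**Figure D3:**
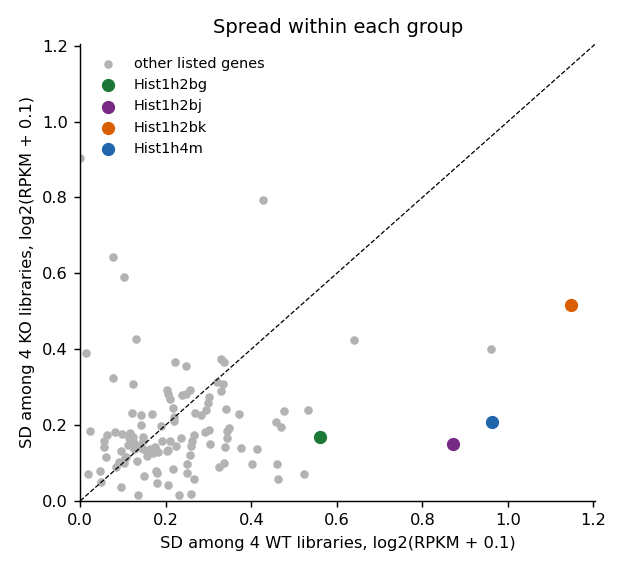
SD of log2(RPKM + 0.1) among the 4 KO libraries against that among the 4 WT libraries, 1 point for each of the 119 genes, with equal values on the dashed line. The 4 histone genes lie to the right of the line, at 0.56 to 1.15 in WT and 0.15 to 0.52 in KO.

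The 4 genes shared the order of the WT libraries only in part. WT 4 was the highest and WT 1 the next for Hist1h2bg, Hist1h2bk and Hist1h4m, and this order was turned for Hist1h2bj. Below them, WT 2 was above WT 3 for Hist1h2bg and Hist1h2bk and below it for Hist1h2bj and Hist1h4m. In KO, Hist1h2bk and Hist1h4m had the same order (KO 1, KO 3, KO 4, KO 2), and KO 1 was also highest for Hist1h2bj, where KO 3 led for Hist1h2bg. Apart from Hist1h2bk, the KO libraries varied by no more than counting error, as given above. The order for Hist1h2bk is uncertain too, since the Poisson interval of KO 1 (0.345 to 0.873 RPKM) overlapped those of KO 2, KO 3 and KO 4. With 4 libraries in a group, no correlation was computed.

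A shared rise or fall cancels in the ratio of 2 genes. Among the WT libraries, the SD of the log2 ratio was smaller than the SD of either gene for 4 of the 6 pairs. It ranged from 0.46, for Hist1h2bg and Hist1h4m, to 0.65, for Hist1h2bj and Hist1h4m. For Hist1h2bg with Hist1h2bj, and with Hist1h2bk, the SD of the ratio (0.56 and 0.61) was not below that of Hist1h2bg itself (0.56), the gene that varied least. Among the KO libraries, the SD of the ratio was below that of both genes for 1 of 6 pairs, Hist1h2bg and Hist1h4m (0.12). The ratio of Hist1h2bg to Hist1h2bj ran from 1.30 to 3.75 in WT and from 2.60 to 3.90 in KO, and that of Hist1h2bk to Hist1h4m from 0.222 to 0.592 in WT and from 0.169 to 0.360 in KO. The ranges of WT and KO overlapped for all 6 pairs. With 4 libraries in a group and few reads, such overlap cannot show that the genes changed alike. Whether the change in KO differed between the 4 genes was not tested.

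Per length of listed span, the mean level from uniquely mapped reads was highest for Hist1h4m in both groups, followed by Hist1h2bg. Because the genes differ in how much of their sequence is shared with other copies, as given above, this order and the ratios between genes are uncertain as levels of RNA. The means of these genes differed by less than the SD among WT libraries, and in KO the ratio of Hist1h2bg to Hist1h4m ran from 0.852 to 1.03. Hist1h2bk and Hist1h2bj were the lowest, with the mean of Hist1h2bk above that of Hist1h2bj in WT and below it in KO. In each group these means differed by less than the SD of Hist1h2bk. In KO, Hist1h2bg was 2.60 to 3.90 times Hist1h2bj in every library, and 2.40 to 5.30 times Hist1h2bk.

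The profile over all 8 libraries was compared between genes by centring each gene's log2(RPKM + 0.1) on its own mean and taking the root mean square difference. Each histone gene was nearest to the mean of the other 3 among the 116 genes compared. The differences were 0.28 for Hist1h4m, 0.35 for Hist1h2bg, 0.35 for Hist1h2bj and 0.47 for Hist1h2bk, and the next gene was at 0.66, 0.71, 0.66 and 0.57 in the same order. Among the 5 other genes nearest to the mean of all 4 were Gm14851 (0.65), Gm10104 (0.66), Ang4 (0.67) and Gm15292 (0.68), against a median of 1.00 over the other 115 genes. Ang4, an angiogenin of Paneth cells, was at 40.9 ± 5.42 RPKM in WT and 30.3 ± 3.36 in KO (SD, n = 4). None of these 4 genes had WT 1 and WT 4 as its highest WT libraries. With a pseudocount of 0.01 or 1, 3 of the 5 genes were again among the nearest.

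**Figure D4:**
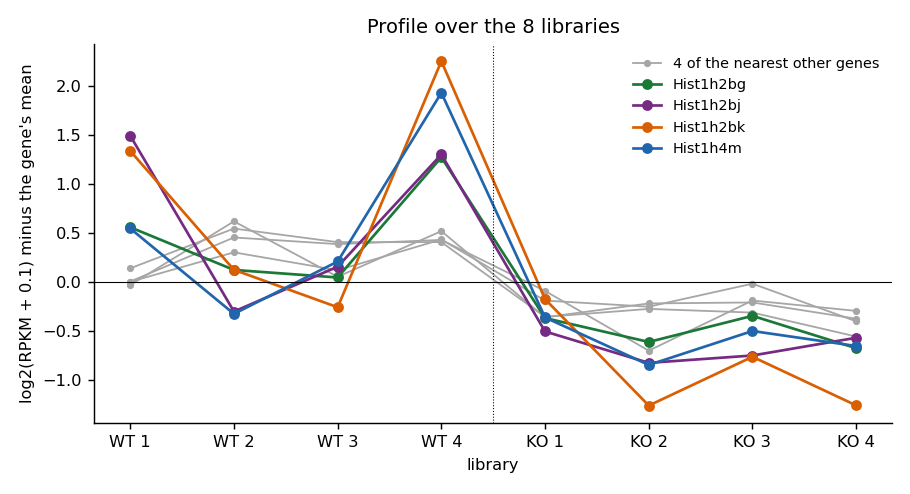
Centred log2(RPKM + 0.1) of the 4 histone genes (coloured) and of Gm14851, Gm10104, Ang4 and Gm15292 (grey), which are among the nearest to their mean, over the 8 libraries, with WT left of the dotted line and KO right of it. The histone genes peak in WT 4 and, in part, in WT 1, whereas the grey genes vary over a narrower range and differ from the mean of the 4 by 0.65 to 0.68.

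WT 1 and WT 4 were the highest WT libraries for 5 of the 119 genes, the 4 histone genes and Apobec3, an antiviral cytidine deaminase. Apobec3 was named after its values were seen. It was at 1.04, 0.964, 1.03 and 1.24 RPKM in WT 1 to WT 4, a narrower range than that of the histone genes. For 64 of the 119 genes, 53.8%, WT 1 and WT 4 were instead the lowest WT libraries. In scaling factors set by the median of ratios over the 119 genes, WT 1 and WT 4 were likewise lowest, at 0.841 and 0.856, where the other 6 libraries were at 1.02 to 1.10. The factors rest only on genes selected for a difference, so they cannot be read as depth. Dividing by them raises WT 1 and WT 4 for every gene, so a larger change of the histone genes follows from the factors. With these factors the change was -1.33 for Hist1h4m, -1.15 for Hist1h2bg, -1.46 for Hist1h2bj and -1.87 for Hist1h2bk on the log2 scale. The change over all genes shifted by -0.07, and 57 of 114 calls were lower in KO, against 36 of 94 without the factors.

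WT 4 set a large share of the size of the difference. Without it, the KO to WT ratio of mean RPKM moved from 0.354 to 0.571 for Hist1h4m, from 0.205 to 0.329 for Hist1h2bk, from 0.454 to 0.575 for Hist1h2bg and from 0.302 to 0.348 for Hist1h2bj. The log2 changes without WT 4 were -0.73, -1.26, -0.74 and -1.11 in this order, with limma adjusted p of 0.0150, 0.0192, 0.00528 and 0.0226. All 4 calls thus stood without this library, with narrower intervals for Hist1h4m, Hist1h2bk and Hist1h2bg. For Hist1h2bj, leaving out WT 1 gave a ratio of 0.378 and a change of -1.05, and leaving out WT 2, its lowest WT library, gave a ratio of 0.252 and a change of -1.64. Of the 32 fits with 1 library left out, Hist1h4m lost its call in 1, without KO 2, where the change was -1.09 (limma adjusted p = 0.0559). No direction turned.

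**Figure D5:**
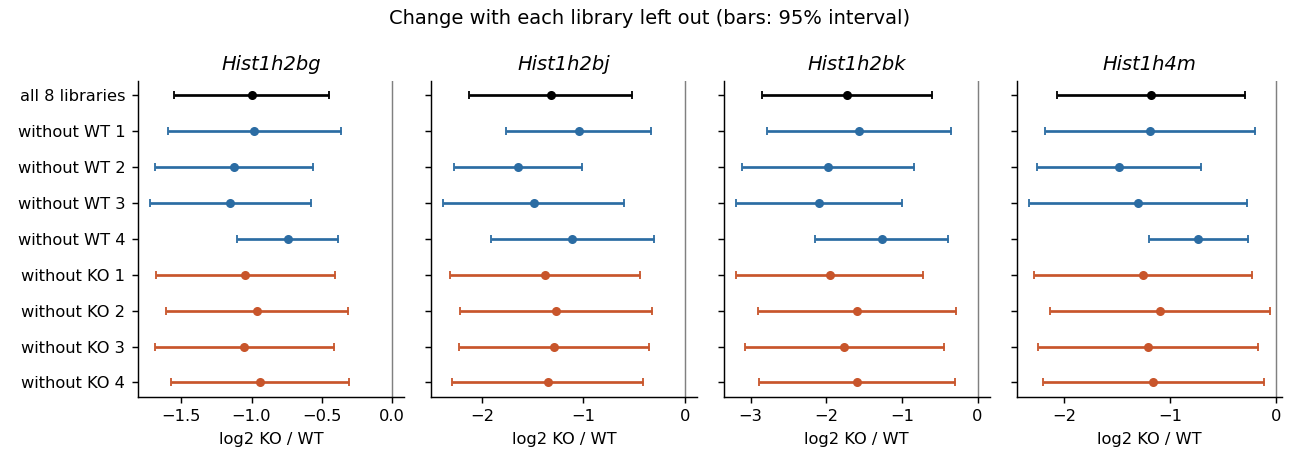
Change in KO against WT on the log2(RPKM + 0.1) scale, with limma 95% intervals, for each histone gene with all 8 libraries (black), with each WT library left out (blue) and with each KO library left out (orange). Panels have their own horizontal scales. Without WT 4 the change of Hist1h4m is -0.73 and that of Hist1h2bg -0.74, and all intervals stay below 0.

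The other gene lists tied to histone production held no gene of the table. None of the 26 genes of S phase and mitosis, 12 replacement histones, 7 histone chaperones and 10 genes of histone mRNA 3′ end processing and transcription was listed, so their levels in these libraries were not analysed here. The same holds for the lists of enterocytes, goblet cells, smooth muscle and of lymphoid and myeloid cells. Of 4 crypt stem cell markers, Ascl2, a transcription factor of intestinal stem cells, was listed. It was at 1.56, 3.01, 3.30 and 2.44 RPKM in WT 1 to WT 4 and at 1.66 to 1.96 in KO, and its change was -0.41 on the log2(RPKM + 0.1) scale (limma adjusted p = 0.0897). WT 1, the second highest library for most histone genes, was the lowest WT library for Ascl2.

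Some markers of Paneth cells, the crypt cells that secrete antimicrobial peptides, were among the 119 genes. Of 21 markers, 10 were listed and none of these was at 0 in any library. All 10 were called lower in KO, beside 30.3% of all 119 genes (36 genes). Most of the 10 belong to the alpha-defensin family. Listing required a difference between these same libraries, so that the listed markers differ was fixed in advance. Markers not listed have no values here. Their summed level was 3565 to 4984 RPKM in WT and 2870 to 3795 in KO. Summed Paneth markers were 3565, 4984, 4200 and 4971 RPKM in WT 1 to WT 4, so that WT 1 was lowest, unlike in the histone genes. Of 16 pancreatic acinar genes, Clps and Pnliprp2, which act in fat digestion, were listed under the same selection. Both were called lower in KO, beside the same 30.3% of all 119 genes. Summed, they were at 26.2 to 37.1 RPKM in WT and 20.1 to 27.0 in KO, again with WT 1 the lowest WT library. The part of Paneth cell content or of pancreatic RNA in the values of the histone genes was not tested.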

How the data were processed

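RNA had been sequenced from whole small intestinal tissue, opened, washed in PBS, snap frozen, ground and extracted with Trizol. Per the labels and the study's methods, the authors trimmed reads with Trim Galore 0.4.1, mapped them to GRCm38 with HISAT2 2.0.1, kept uniquely mapped reads, quantified merged transcripts in SeqMonk and tested genes with DESeq2. The study calls the assay mRNA-seq. How mRNA was selected, read length, strand and whether replicates were separate preparations of RNA are not given in the sources used here for these libraries. p-values then measure the spread between these samples. Selection by poly(A) tail, where used, captures mRNAs without such a tail poorly, and its part in these values was not tested. The deposited RPKM values, 1 per library, cover the 119 genes under the authors' FDR of 0.05. The group means and FDR of the authors were not used. Each per-sample column was matched to a sample.

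Multiplied by span and depth, 100% of RPKM values above 0 came out as whole reads (tolerance 0.05). Genes were tested with limma 3.58.1 in R 4.3.3 on log2(RPKM + 0.1), with group as the only term, all 8 libraries, Benjamini-Hochberg adjustment over 119 genes and a threshold of 0.05. Fold changes on this scale understate the change of low genes. For equal sample numbers, the correlation of deviations from the group means over 77 genes was 0.27, 0.21, -0.11 and -0.03 for numbers 1 to 4. Unequal numbers were not compared, so these values cannot decide whether equal numbers are pairs. As no source names pairs, the numbers were not taken as such. Alternatives were pseudocounts of 0.01 and 1, an exact permutation test, a mean RPKM filter of 0.5, a trend of the variance with level, voom on the recovered reads, median of ratios scaling, a replicate block, a threshold of 0.01 and leaving out each library. The limma step and the recovery of depth were tested on simulated data. Intervals of reads are exact Poisson 95% intervals and cover counting error only. The text names the 4 histone genes, Smarcad1, listed genes of the gene lists that a result turns on, the genes nearest in pattern (of 5, 1 is not reported here) and other listed genes of chromosome 13. Members and lists were chosen with earlier results of these data known. Sequences are from RefSeq (all 4 genes matched) and GENCODE M21, and figures were drawn with matplotlib 3.10.9.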

Additional observations from a re-analysis of the deposited data

How the results depend on the processing

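The direction of all 4 histone genes held in each of the 68 recalculations (17 alternatives for each gene), and 63 were on the same side of the threshold. These recalculations are not independent of each other. The RPKM filter, variance trend, permutation test, replicate block and threshold of 0.01 leave the estimate unchanged, so direction could not turn there. For the 3 genes whose groups did not overlap, another pseudocount or leaving out 1 library could not turn it either. Hist1h2bk did not pass in the exact permutation test (-1.73, adjusted p = 0.0694) and Hist1h4m did not pass with a pseudocount of 1 (-0.86, limma adjusted p = 0.0580). At a threshold of 0.01 in place of 0.05, 2 of the 4 genes passed, and Hist1h2bk (-1.73) and Hist1h4m (-1.18) did not, while the calls over all genes fell from 94 to 62 and those lower in KO from 36 to 10. With the mean RPKM filter of 0.5, 56 of 77 genes were called and all 4 histone genes were among them. With voom on the recovered reads, 94 of 119 genes were called, and the 4 changes were -1.07 to -1.99. With 1 library left out, the log2 change ranged from -1.15 to -0.74 for Hist1h2bg, from -1.64 to -1.05 for Hist1h2bj, from -2.10 to -1.26 for Hist1h2bk and from -1.48 to -0.73 for Hist1h4m, and the ratio of mean RPKM from 0.410 to 0.575, 0.252 to 0.378, 0.158 to 0.329 and 0.298 to 0.571. Of the 5 genes nearest in pattern, 3 were again among the nearest with a pseudocount of 0.01 and 3 with a pseudocount of 1. The cause was not tested. With sample number as a replicate block, the limma adjusted p was 0.0156, 0.00836, 0.0172 and 0.0241 for Hist1h2bg, Hist1h2bj, Hist1h2bk and Hist1h4m, 90 genes were called, and no call of the 4 changed. The numbers are not shown to be pairs.

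Counts of 6 to 20 reads for Hist1h2bk and of 9 to 15 for Hist1h2bj in the KO libraries limit how well their levels there are known. The table held no gene outside the authors' selection, so the other copies of the Hist1 cluster could not be compared.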
